A study of Homo sapiens with 6 samples.

Results

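The collagen chains were examined in the RNA-seq of PC9-BrM3 cells. They were chosen by name alone, as every protein-coding gene whose symbol is COL, a number, A and a number, which gave 44 chains among the 19951 protein-coding genes and 58735 genes of the table. PC9-BrM3 is a brain-metastatic derivative of PC9, a lung adenocarcinoma line, obtained by repeated injection into the left ventricle of immunodeficient mice, and the cells sequenced were kept in routine culture. The 3 libraries of BrM3-shAKR1B10 have the genotype AKR1B10 knockdown, from a lentiviral shRNA. The 3 libraries of BrM3-shNC are labelled WT and carry a negative control shRNA in the study's naming. Neither the labels nor the methods say whether the 3 libraries of a group came from separate cultures, so the p-values measure only the spread between these libraries, which may be technical.

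A collagen is built from chains that wind into a triple helix, for which each chain repeats a triplet that begins with glycine. Fibril-forming collagens give tissues tensile strength, collagen IV forms the sheet of the basement membrane, and others anchor epithelia, coat fibrils or span the cell surface. Fibroblasts are known as the main makers of the fibril-forming chains, while epithelial and carcinoma cells are known for basement membrane and anchoring collagens. A chain that lacks its partner chain is in most types not assembled, so partners are described side by side.

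The repeat was read from the longest complete coding transcript of each of the 44 chains in GENCODE 29 (GRCh38), as triplets of codons whose first codon begins with GG. The first 8 triplets of the longest unbroken run are shown for 4 chains that the results turn on, with the glycine codons in capitals, and introns between the exons are left out.
COL1A1: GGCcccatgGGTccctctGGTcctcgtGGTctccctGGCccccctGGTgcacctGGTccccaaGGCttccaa
COL4A5: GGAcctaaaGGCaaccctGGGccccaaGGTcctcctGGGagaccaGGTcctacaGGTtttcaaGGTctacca
COL7A1: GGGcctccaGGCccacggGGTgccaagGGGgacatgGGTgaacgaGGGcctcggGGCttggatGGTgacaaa
COL12A1: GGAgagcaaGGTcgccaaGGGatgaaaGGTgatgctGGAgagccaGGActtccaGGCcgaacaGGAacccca
The COL1A1 stretch lies in exons 6 to 8 of 51 on the minus strand (chr17:50197985-50198441). That of COL4A5 lies in exons 41 to 44 of 53 on the plus strand (chrX:108668459-108677507). The COL7A1 stretch is in exons 101 and 102 of 118 on the minus strand (chr3:48569411-48569627), and that of COL12A1 in exons 56 to 58 of 66 on the minus strand (chr6:75101645-75102605). The longest run held 338 triplets in COL1A1, 75 in COL7A1, 42 in COL4A5 and 32 in COL12A1. Runs of at least 4 triplets covered 72.7% of the codons of COL1A1 and 8.13% of those of COL12A1, most of whose coding sequence lies outside such runs. The 6 collagen IV chains had between 22 and 27 such runs each, with a longest run of 38 to 66 triplets, so that their helix is interrupted many times.

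COL4A5 and COL4A6 start head to head on the X chromosome, 379 bases apart between the RefSeq start sites whose windows overlap (GRCh38.p14). The 121 bases that the RefSeq promoter windows of both genes hold between the starts (chrX:108439588-108439708, written on the plus strand, 5′ to 3′) are shown because both genes were lower in BrM3-shAKR1B10, as described further on.
COL4A5 and COL4A6: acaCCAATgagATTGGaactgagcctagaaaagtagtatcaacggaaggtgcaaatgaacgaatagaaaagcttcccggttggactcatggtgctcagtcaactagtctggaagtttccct
Capitals mark CCAAT on either strand, found once in each orientation, and no exon of GENCODE 29 overlaps the stretch. The GC box (GGGCGG), the TATA box (TATAAA) and the AP-1 site (TGACTCA), each searched on both strands, were not found in these letters. COL4A6 has another RefSeq promoter window (chrX:108438373-108438672), which lies outside this stretch and held the GC box. Of all 35116 RefSeq promoter windows of 300 bases, 34.6% held CCAAT, 45.0% the GC box, 11.5% the TATA box and 4.95% the AP-1 site. RefSeq windows were found for 32 of the 44 chains, 44 windows in all, of which 14 held CCAAT, 24 the GC box, 8 the TATA box and 0 the AP-1 site. A match of letters is a description and was not tested as a site of any factor.

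Levels are given as FPKM, the number of fragments of a gene scaled by its exon length and by the library size, which allows genes of different length to be compared. The 6 libraries held between 16964504 and 18709028 fragments on genes, called reads below. At this depth 3 reads, the upper limit that a count of 0 allows, are worth 0.00904 to 0.0562 FPKM over the lengths of the 44 chains. The limit covers counting error only. BrM3-shNC replicate 1 stood apart from the other control libraries, with a chi-square per gene of 4.88 and 5.42 against them, where the other pairs within a group lay between 2.45 and 2.70. Without it, 4 chains were called lower and 1 higher among those averaging 1 FPKM or more, the same counts as with all libraries. The targeted gene AKR1B10, which encodes an aldo-keto reductase, was at 107 to 110 FPKM in BrM3-shAKR1B10 and at 772 to 799 FPKM in BrM3-shNC, so the labels match the target. All 6 epithelial markers were present, with a summed level of 2986 to 3348 FPKM. Of 8 fibroblast markers, 3 (PDGFRA, LUM and DCN) were listed at 0 in every library. FBLN1 alone reached a mean FPKM of 1, at 58.8 to 66.6 FPKM. The fibroblast list summed to 64.0 to 66.6 FPKM in BrM3-shAKR1B10 and to 58.9 to 62.2 FPKM in BrM3-shNC, and without FBLN1 to 0.0237 to 0.0691 FPKM over all libraries. No leukocyte and no pericyte or smooth muscle marker reached a mean FPKM of 1. The leukocyte list summed to 1.16 to 1.19 FPKM in BrM3-shAKR1B10 and to 1.32 to 1.64 FPKM in BrM3-shNC with LYZ at 0. The pericyte and smooth muscle list summed to 2.04 to 2.66 FPKM and to 2.43 to 2.50 FPKM. Of the 6 endothelial markers, the 2 that averaged 1 FPKM or more, CDH5 and ESAM, were both called higher in BrM3-shAKR1B10, as were 5.83% of all genes tested. PECAM1 was at 0.233 to 0.293 FPKM in BrM3-shAKR1B10 and at 0.388 to 0.513 FPKM in BrM3-shNC and was not called, VWF overlapped between the groups, TEK had at most 2 reads in a library, and KDR was listed at 0. The endothelial list summed to 4.34 to 4.59 FPKM in BrM3-shAKR1B10 and to 2.90 to 3.16 FPKM in BrM3-shNC. Its part in the collagen values was not tested.

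Of the 44 chains, 12 were expressed, taken as an average of 1 FPKM or more, with means between 1.60 and 28.9 FPKM. The number depends on this level, since 5 chains averaged 5 FPKM or more, and 19 averaged 1 TPM or more (TPM being FPKM rescaled to the same sum in every library), with COL4A6, COL16A1, COL28A1, COL13A1, COL6A2, COL11A2 and COL5A2 added. Another 12 were low, with more than 3 reads in every library and means between 0.0623 and 0.978 FPKM. A further 14 were seen only in traces of 0 to 10 reads per library, and 6 were listed at 0 in all libraries. By the mean over all 6 libraries the 3 highest chains were COL18A1, COL7A1 and COL12A1, which together made up 69.5% to 70.5% of the summed collagen level in BrM3-shAKR1B10 and 62.6% to 63.0% in BrM3-shNC, where COL4A5 (9.21 FPKM) had a higher mean than COL12A1 (7.96 FPKM). By family, the 2 expressed chains among 11 fibril-forming ones were COL1A1 and COL5A1, and COL3A1 held 0 to 3 reads per library. Of the 6 collagen IV chains, 3 were expressed and 3 low. Of the 10 fibril-associated chains, 3 were expressed, 1 was low, 3 were traces and 3 were listed at 0. Neither the 4 transmembrane chains nor the 3 short-chain network chains (COL8A1, COL8A2 and COL10A1) reached a mean FPKM of 1. The plot of all chains shows this range.

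**Figure D1:**
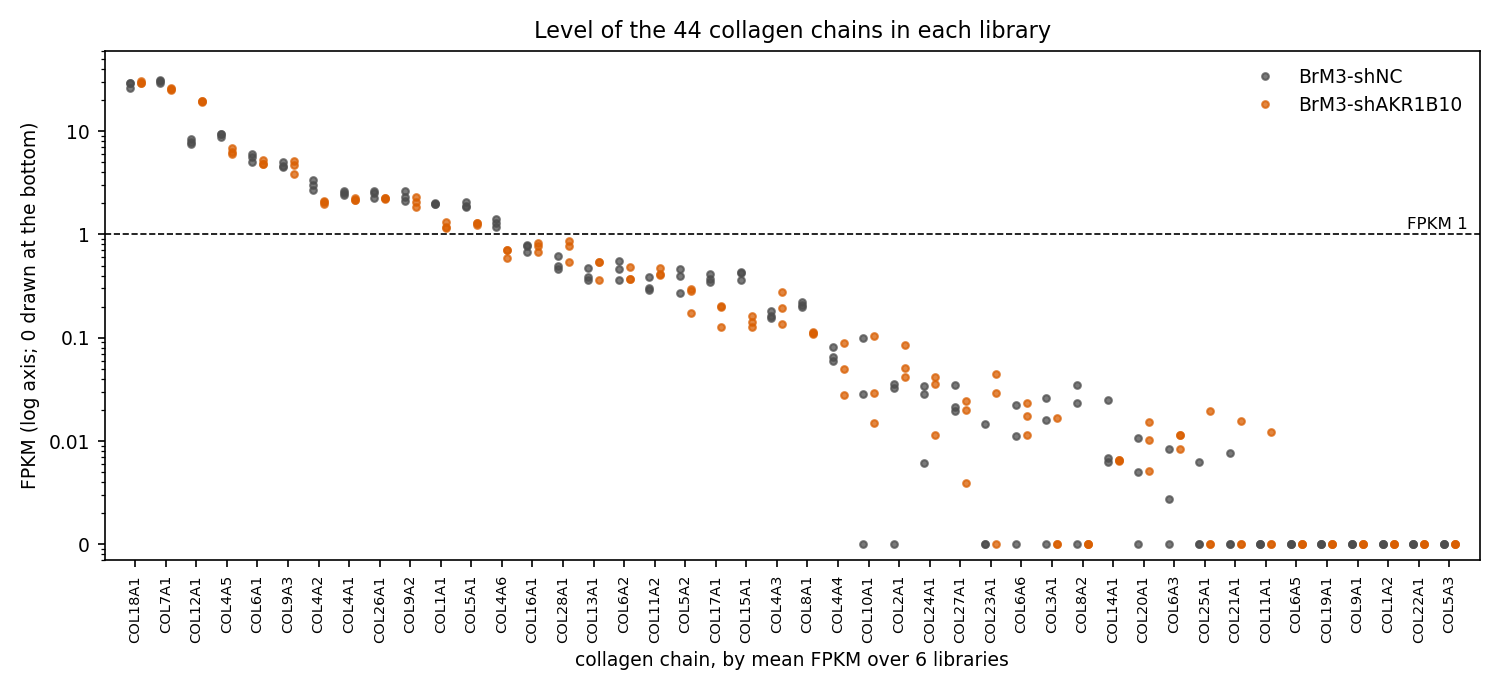
FPKM of the 44 collagen chains on a log axis, 1 point per library, with BrM3-shNC in grey and BrM3-shAKR1B10 in orange, ordered by the mean over 6 libraries. Values of 0 are drawn at the bottom, the dashed line marks a mean FPKM of 1, 12 chains lie above it on average, and the last 6 are at 0 in every library.

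The FPKM divides by the length of all annotated exons of a gene, joined. For the 12 expressed chains this length was between 1.25 and 3.76 times the coding length of the longest coding transcript, with the highest ratio in COL4A2 (19293 bases of exon against 5136 coding bases). Orders between chains, and which chains pass the filter, therefore depend on the annotated exons. COL18A1 also shares 1401 exon bases, 16.4% of its length, with SLC19A1 on the opposite strand. The sources used here do not say whether counting used the strand, and the reads assigned to SLC19A1 came to between 10.5% and 16.5% of those of COL18A1.

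The groups were compared with limma on log2(FPKM + 0.1) over the 13150 genes that averaged 1 FPKM or more. A gene was called where its Benjamini-Hochberg adjusted p was under 0.05 and its log2 fold change was beyond 0.5 in either direction. Each log2 fold change is BrM3-shAKR1B10 minus BrM3-shNC on that scale, which understates the change of low genes. Of the 12 expressed chains, 4 were called lower (COL4A5, COL4A2, COL1A1 and COL5A1) and 1 was called higher (COL12A1). Over all genes tested, 7.45% were called lower and 5.83% higher. With a pseudocount of 1 in place of 0.1, none of the 4 lower calls was kept, since each fold change fell short of the threshold, and COL12A1 was still called. The fold change was below 0 for 10 of the 12 chains, against 51.6% of all genes. Its median was -0.19 over the chains and -0.01 over all genes. The libraries of the groups did not overlap for 7 chains that were lower and 1 that was higher in BrM3-shAKR1B10, where 29.2% of all genes tested did not overlap and were lower, and 25.5% did not overlap and were higher. In bulk libraries, fewer cells that make a transcript and less transcript per cell cannot be told apart.

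COL12A1, the chain of collagen XII, which coats the surface of collagen fibrils, was the chain with the largest difference among the 12. It lies on the minus strand of chromosome 6 (ENSG00000111799, chr6:75084326-75206051). Its level was 19.0, 19.4 and 19.5 FPKM in the 3 libraries of BrM3-shAKR1B10 and 8.41, 7.93 and 7.54 FPKM in those of BrM3-shNC. All 3 knockdown libraries were thus above all control libraries, at a ratio of group means of 2.42. The means were 19.3 ± 0.268 and 7.96 ± 0.436 FPKM (SD, n = 3 each). The log2 fold change was 1.27 with a standard error of 0.0475 and an adjusted p of 1.4e-05 by limma. With COL12A1 the order of the chains changed, since COL4A5 was above it in every BrM3-shNC library and below it in every BrM3-shAKR1B10 library. Its share of the summed collagen level was 18.1% to 18.3% in BrM3-shAKR1B10 and 7.04% to 8.30% in BrM3-shNC.

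The other expressed members of the fibril-associated family are chains of collagen IX, known from cartilage. COL9A3 was at 5.18, 3.83 and 4.67 FPKM in BrM3-shAKR1B10 and at 4.53, 4.97 and 4.63 FPKM in BrM3-shNC, and COL9A2 was at 2.28, 2.05 and 1.85 FPKM against 2.09, 2.29 and 2.61 FPKM. The groups overlapped for both, and neither passed the test (COL9A3, log2 fold change -0.05, 95% interval -0.32 to 0.21; COL9A2, -0.17, interval -0.45 to 0.11). COL9A1, the partner of both in collagen IX, was listed at 0 in all 6 libraries, which allows a level of up to 0.0245 FPKM. COL9A3 shares 45 exon bases with TCFL5 on the opposite strand. COL16A1, another fibril-associated chain, lay just below a mean FPKM of 1, at 0.681 to 0.827 FPKM in BrM3-shAKR1B10 and 0.682 to 0.791 FPKM in BrM3-shNC.

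**Figure D2:**
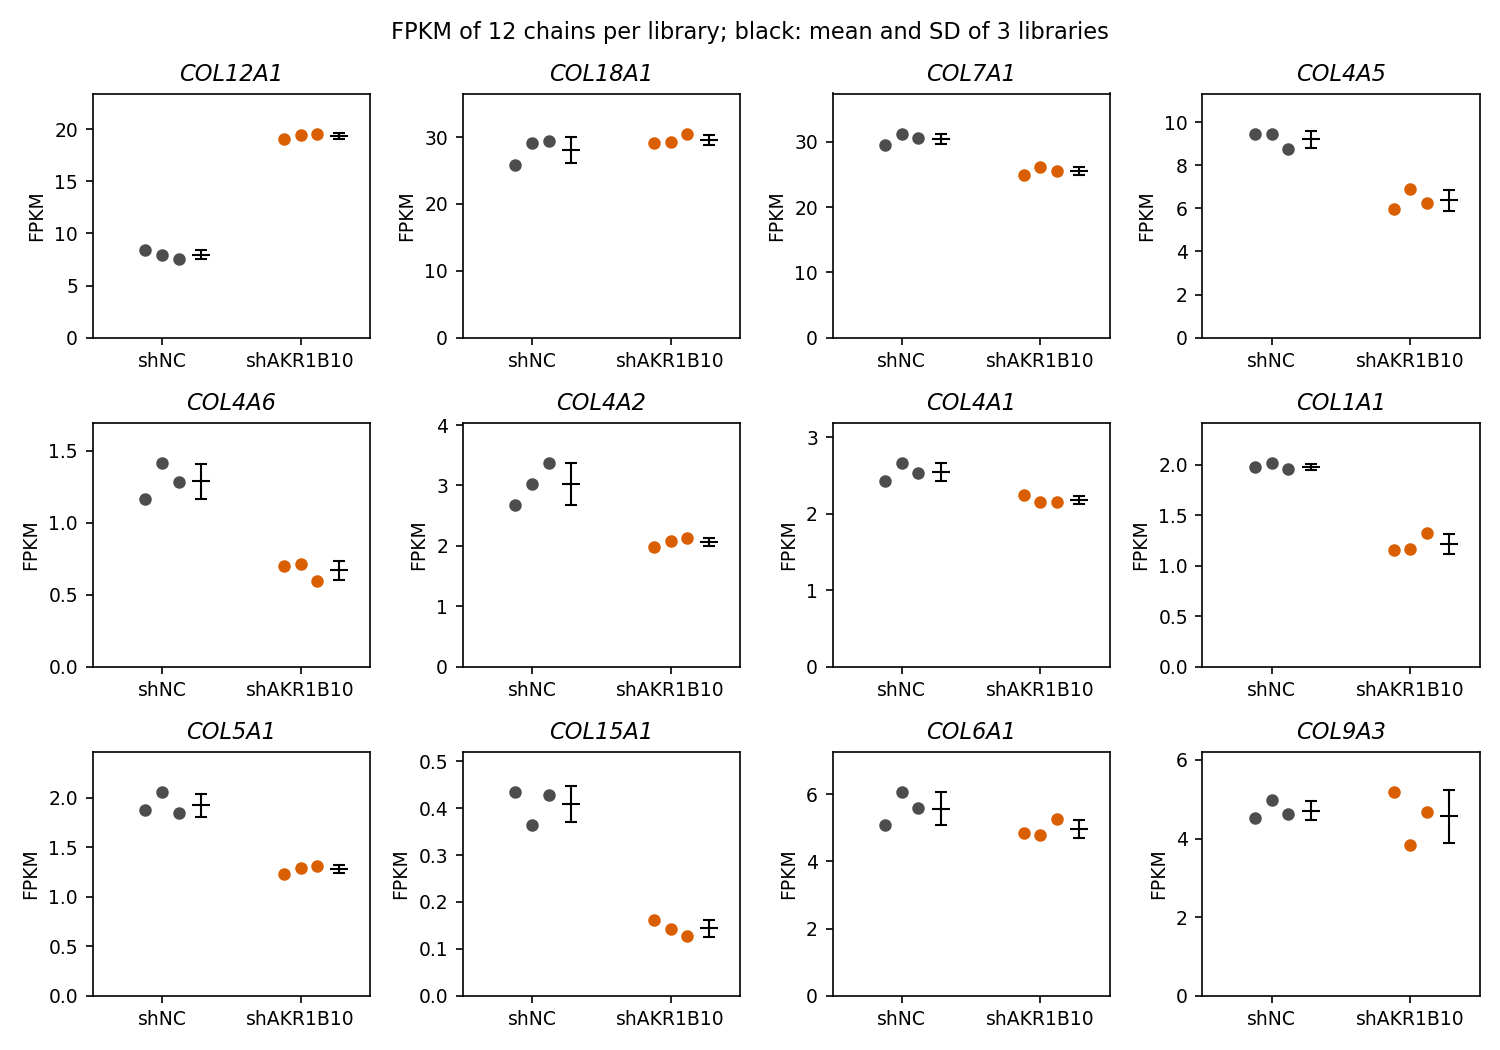
FPKM of 12 chains in each library, linear axes from 0, with the mean and SD of 3 libraries in black. COL12A1 is higher in all 3 BrM3-shAKR1B10 libraries, COL7A1, COL4A5, COL4A6, COL4A2, COL4A1, COL1A1, COL5A1 and COL15A1 are lower in all 3, and COL18A1, COL6A1 and COL9A3 overlap.

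Collagen IV builds the basement membrane network, and its 6 chains are encoded as 3 head-to-head gene pairs. The most widespread network is that of COL4A1 and COL4A2 (chr13:110148963-110307233 on the minus strand and chr13:110305812-110513209 on the plus strand). COL4A3, COL4A4 and COL4A5 form a network known from kidney and lung, and COL4A5 with COL4A6 one known from smooth muscle and some epithelia. In PC9-BrM3 the chain with the highest level of the 6 was COL4A5, at 5.99, 6.91 and 6.23 FPKM in BrM3-shAKR1B10 and 9.43, 9.44 and 8.77 FPKM in BrM3-shNC. Every knockdown library was below every control library, with a log2 fold change of -0.53 (standard error 0.0648, limma adjusted p 0.0010). COL4A2 was at 1.99, 2.07 and 2.12 FPKM in BrM3-shAKR1B10 against 2.67, 3.02 and 3.37 FPKM in BrM3-shNC. The groups did not overlap, and the log2 fold change was -0.52 (standard error 0.0981, limma adjusted p 0.0061). Both lie close to the fold threshold of 0.5. COL4A5 was at -0.48 without BrM3-shAKR1B10 replicate 1, and COL4A2 at -0.50 without that library, just short of the threshold, and at -0.44 without BrM3-shNC replicate 3. Without BrM3-shAKR1B10 replicate 1 the number of chains called lower was 2.

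COL4A1 was at 2.24, 2.15 and 2.16 FPKM in BrM3-shAKR1B10 and at 2.43, 2.66 and 2.54 FPKM in BrM3-shNC, which did not overlap. Its log2 fold change of -0.21 (95% interval -0.38 to -0.04) was not called, with a limma adjusted p of 0.0562. The ratio of COL4A2 to COL4A1 was 0.886, 0.964 and 0.985 in BrM3-shAKR1B10 and 1.10, 1.13 and 1.33 in BrM3-shNC, so it was lower in every knockdown library. The exact two-sided permutation test of that ratio gave p = 0.10, the smallest that 3 libraries against 3 allow. The 126 bases between the RefSeq starts of COL4A1 and COL4A2 are not printed because transcripts of GENCODE 29 cover nearly all of them.

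COL4A6 (chrX:108155607-108439497, minus strand) had a mean of 0.978 FPKM, just under the level of the main comparison, and COL4A3 and COL4A4 were lower still. Genes averaging 0.1 FPKM or more were therefore compared in a second fit over 21762 genes, a lower filter whose own alternatives were added after the data were seen. In this fit 5.34% of genes were called lower and 4.87% higher. It tested 23 of the 44 chains, of which 6 were called lower and 1 higher. The median log2 fold change was -0.17 over the 23 chains and 0.02 over all genes. COL4A6 was at 0.701, 0.710 and 0.595 FPKM in BrM3-shAKR1B10 and at 1.17, 1.41 and 1.28 FPKM in BrM3-shNC, with a log2 fold change of -0.85 (standard error 0.139, limma adjusted p 0.0060). It was thus lower in every knockdown library, although it was not called with a pseudocount of 1 (-0.45). COL4A5, on the other side of the shared start region printed above, was also lower in every knockdown library. The ratio of COL4A6 to COL4A5 was 0.117, 0.103 and 0.0956 in BrM3-shAKR1B10 and 0.124, 0.150 and 0.146 in BrM3-shNC (exact permutation test, two-sided, p = 0.10, the smallest possible). COL4A3 was at 0.136 to 0.279 FPKM in BrM3-shAKR1B10 and 0.155 to 0.180 FPKM in BrM3-shNC, which overlapped, and COL4A4 had 5 to 16 reads in each library and was not tested. In sum the 6 collagen IV chains stood at 11.2 to 12.1 FPKM in BrM3-shAKR1B10 and at 15.9 to 16.8 FPKM in BrM3-shNC.

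**Figure D3:**
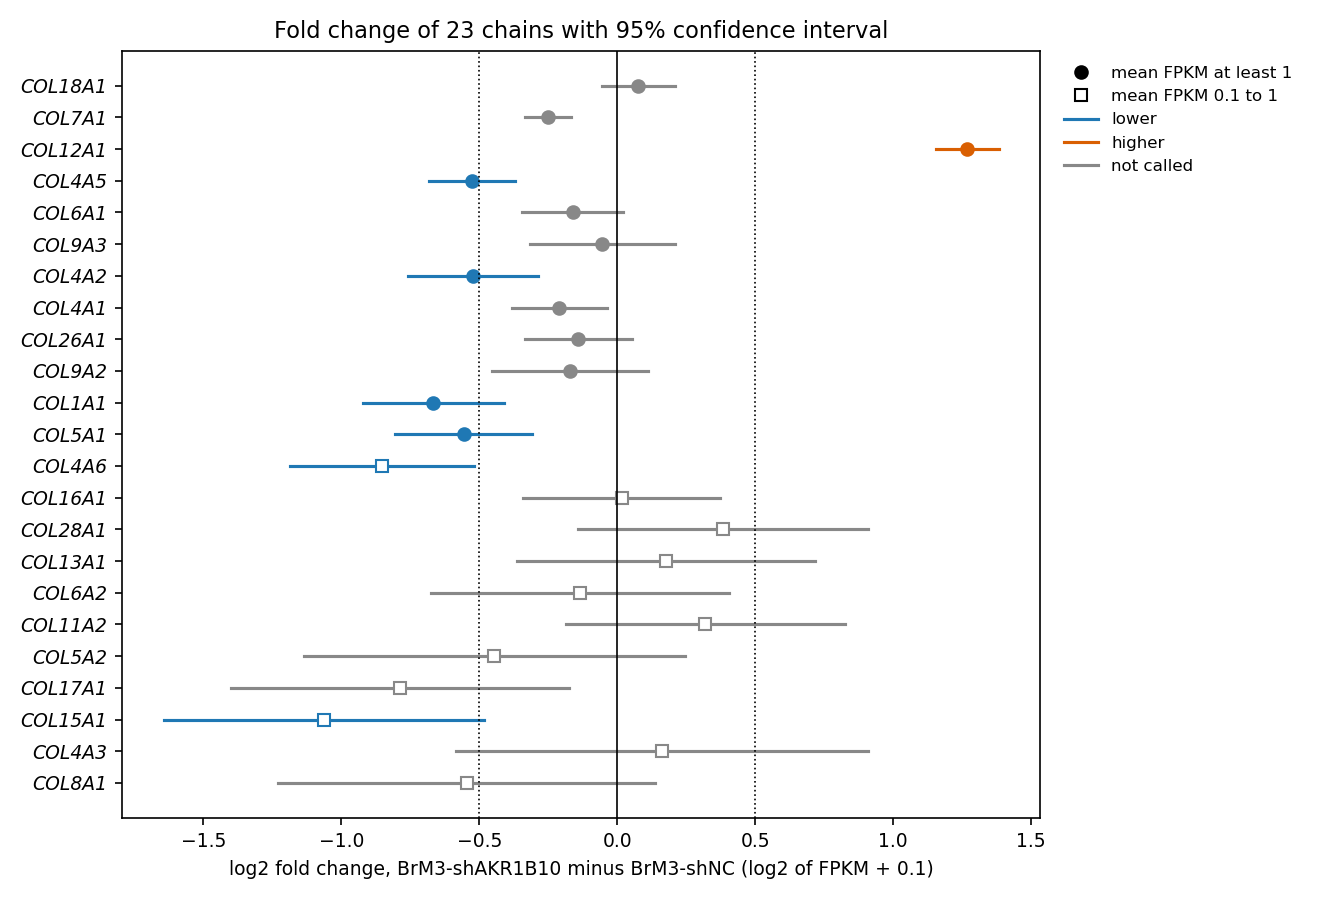
Log2 fold change, BrM3-shAKR1B10 minus BrM3-shNC, of 23 collagen chains on the log2(FPKM + 0.1) scale, with 95% confidence intervals from limma; filled circles are chains that averaged 1 FPKM or more and open squares those between 0.1 and 1. Only COL12A1 is called higher, at 1.27, and COL4A5, COL4A2, COL1A1, COL5A1, COL4A6 and COL15A1 are called lower, the last at -1.06.

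The fibril-forming chains were at low levels. COL1A1, the main chain of collagen I (ENSG00000108821, chr17:50183289-50201632, minus strand), was at 1.15, 1.17 and 1.33 FPKM in BrM3-shAKR1B10 and at 1.98, 2.02 and 1.96 FPKM in BrM3-shNC. It was lower in all 3 knockdown libraries, with a ratio of group means of 0.613 and a log2 fold change of -0.67 (standard error 0.107, limma adjusted p 0.0032). COL1A2, its partner in the common form of collagen I, had no read in any of the 6 libraries, which allows up to 0.0159 FPKM, while COL1A1 had between 200 and 356 reads. A form of collagen I made of COL1A1 chains alone is known, and the protein was not measured here. COL5A1, a chain of collagen V that is known to set fibril diameter (chr9:134641774-134844843, plus strand), was at 1.23, 1.29 and 1.31 FPKM against 1.88, 2.06 and 1.84 FPKM. The groups did not overlap, and its log2 fold change was -0.56 (standard error 0.104, limma adjusted p 0.0059). With a pseudocount of 1, the log2 fold change was -0.43 for COL1A1 and -0.36 for COL5A1, and neither was called.

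COL5A2, the usual partner of COL5A1, was at 0.281, 0.297 and 0.174 FPKM in BrM3-shAKR1B10 and at 0.395, 0.468 and 0.272 FPKM in BrM3-shNC. These overlapped, with a log2 fold change of -0.44 (95% interval -1.14 to 0.25, limma adjusted p 0.323). The ratio of COL5A2 to COL5A1 was between 0.133 and 0.230 over all 6 libraries and overlapped between the groups (exact permutation test, p = 1). COL5A3 was listed at 0, which allows up to 0.0263 FPKM. COL11A2, a chain of the cartilage collagen XI, was at 0.403 to 0.468 FPKM in BrM3-shAKR1B10 and 0.291 to 0.386 FPKM in BrM3-shNC and did not pass the test (log2 fold change 0.32, limma adjusted p 0.330). COL11A1 held at most 2 reads in a library, and COL2A1 between 0 and 10.

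COL18A1 and COL7A1 were the chains with the most transcript and neither was called. COL18A1, whose product is a basement membrane proteoglycan and the source of endostatin (ENSG00000182871, chr21:45405137-45513720, plus strand), was at 29.1, 29.2 and 30.4 FPKM in BrM3-shAKR1B10 and at 25.9, 29.1 and 29.4 FPKM in BrM3-shNC. The groups overlapped, with a log2 fold change of 0.08 (95% interval -0.06 to 0.21). COL7A1, the chain of the anchoring fibrils that tie epithelium to the underlying matrix (ENSG00000114270, chr3:48564073-48595267, minus strand), was at 25.0, 26.1 and 25.5 FPKM against 29.6, 31.2 and 30.6 FPKM. All 3 knockdown libraries were below the control libraries, and the log2 fold change of -0.25 (standard error 0.0350, limma adjusted p 0.0017) passed the adjusted p but not the fold threshold. COL7A1 thus stood above COL18A1 in every BrM3-shNC library and below it in every BrM3-shAKR1B10 library.

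COL15A1, the relative of COL18A1 among the multiplexins (chr9:98943179-99070792, plus strand), was at 0.162, 0.142 and 0.127 FPKM in BrM3-shAKR1B10 and at 0.434, 0.364 and 0.428 FPKM in BrM3-shNC, from 15 to 53 reads a library. It was lower in every knockdown library and was called in the second fit (log2 fold change -1.06, standard error 0.241, limma adjusted p 0.0209). That call was lost without BrM3-shNC replicate 1 (log2 fold change -1.03, adjusted p 0.0535), without BrM3-shNC replicate 3 (-1.03, adjusted p 0.0540) and with the replicate number as a block (-1.06, adjusted p 0.0687). With a pseudocount of 1 it was also lost, since the log2 fold change was -0.30. Over all alternatives the adjusted p lay between 1.98e-04 and 0.0687.

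COL6A1, a chain of the beaded filaments of collagen VI, was at 4.86, 4.78 and 5.27 FPKM in BrM3-shAKR1B10 and at 5.08, 6.06 and 5.59 FPKM in BrM3-shNC. The groups overlapped, and the log2 fold change of -0.16 was not called (95% interval -0.34 to 0.02). Its partner COL6A2 was at 0.364 to 0.549 FPKM over all libraries, and the ratio of COL6A2 to COL6A1 was between 0.0717 and 0.0983. Of the chains that complete collagen VI, COL6A3 held 0 to 4 reads, COL6A6 0 to 4 reads and COL6A5 none. COL26A1 was at 2.21, 2.23 and 2.25 FPKM in BrM3-shAKR1B10 and at 2.26, 2.53 and 2.62 FPKM in BrM3-shNC. It did not pass the test (log2 fold change -0.14, limma adjusted p 0.209), although the libraries did not overlap. COL28A1, also just below a mean FPKM of 1, was at 0.537 to 0.864 FPKM against 0.461 to 0.613 FPKM, which overlapped.

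COL17A1, the transmembrane collagen of hemidesmosomes, was at 0.200, 0.204 and 0.128 FPKM in BrM3-shAKR1B10 and at 0.347, 0.368 and 0.411 FPKM in BrM3-shNC. The groups did not overlap, and the log2 fold change of -0.79 had a limma adjusted p of 0.0680, so it was not called. COL8A1, a short-chain network collagen known from vessels and cornea, was at 0.114, 0.112 and 0.108 FPKM against 0.220, 0.207 and 0.198 FPKM, with an adjusted p of 0.223. Limma's voom on the recovered reads called both, with adjusted p of 0.0027 for COL17A1 and 0.0159 for COL8A1. The partner COL8A2 held 0 to 3 reads. COL13A1, the remaining low transmembrane chain, was at 0.364 to 0.538 FPKM in BrM3-shAKR1B10 and 0.361 to 0.475 FPKM in BrM3-shNC.

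The summed level of all 44 chains was 105.1, 105.9 and 107.0 FPKM in BrM3-shAKR1B10 and 101.4, 108.9 and 107.2 FPKM in BrM3-shNC, which overlapped. Without COL12A1 the sum was 86.1 to 87.5 FPKM in BrM3-shAKR1B10 and 92.9 to 101.0 FPKM in BrM3-shNC, which did not overlap. COL12A1 was chosen for this split after its values were seen. Collagen IV made up 10.6% to 11.4% of the summed level in BrM3-shAKR1B10 and 15.1% to 15.7% in BrM3-shNC. Reads on the 44 chains came to between 0.0979% and 0.108% of all reads on genes.

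**Figure D4:**
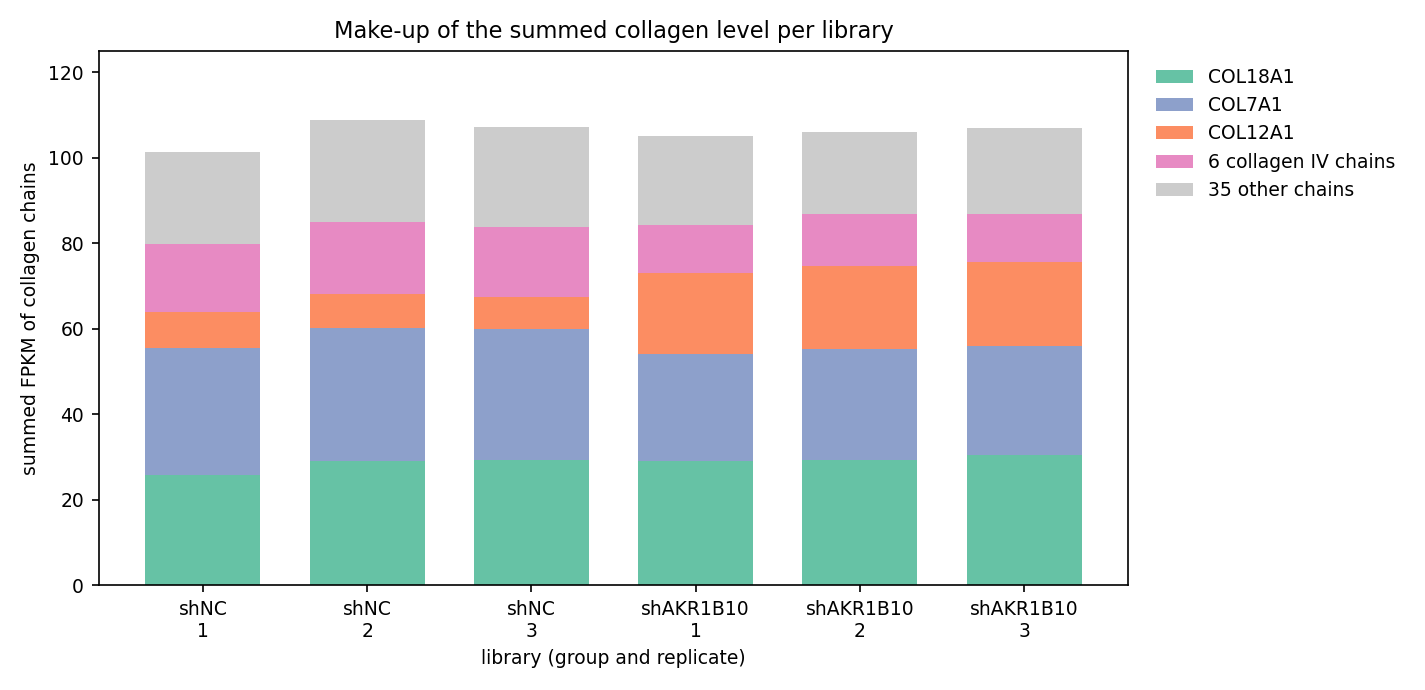
Summed FPKM of the 44 collagen chains in each library, stacked by chain or family, on a linear axis from 0. The total is 105.1 to 107.0 FPKM in BrM3-shAKR1B10 and 101.4 to 108.9 FPKM in BrM3-shNC, while the share of COL12A1 is 7.04% to 8.30% in BrM3-shNC and 18.1% to 18.3% in BrM3-shAKR1B10.

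Before secretion, collagen chains are hydroxylated on proline and lysine, glycosylated, folded by chaperones and exported in large carriers; afterwards their propeptides are removed and the molecules are crosslinked. Of 39 genes for these steps, 28 were tested, of which 2 were called lower and 1 higher, near or below the 7.45% and 5.83% of all genes tested. Without the fold threshold, 11 were lower and 8 higher at an adjusted p under 0.05, where 23.1% of all genes tested were lower and 19.4% higher, and the log2 fold changes of these 28 genes had a median of 0.01. SERPINH1, the collagen-specific chaperone HSP47, was at 23.2, 22.6 and 24.6 FPKM in BrM3-shAKR1B10 and at 38.3, 41.9 and 41.7 FPKM in BrM3-shNC. It was lower in all 3 knockdown libraries, with a log2 fold change of -0.79 (standard error 0.0503, limma adjusted p 7.4e-05). PLOD2, a lysyl hydroxylase of collagen telopeptides, was at 7.76, 7.74 and 7.65 FPKM against 13.4, 12.8 and 12.1 FPKM. Its log2 fold change was -0.72 (standard error 0.0455, limma adjusted p 7.2e-05), again with no overlap. TGM2, a transglutaminase that crosslinks matrix proteins, was higher in BrM3-shAKR1B10, at 6.92, 7.21 and 6.88 FPKM against 4.22, 4.38 and 4.04 FPKM (log2 fold change 0.72, standard error 0.0492, limma adjusted p 9.7e-05). It shares 394 exon bases, 4.90% of its length, with RPRD1B on the opposite strand.

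Among the genes with the highest mean over all 6 libraries in each step, P4HB, a subunit of prolyl 4-hydroxylase, was at 130 to 142 FPKM over all libraries and overlapped between the groups. PPIB, a prolyl isomerase, was at 32.1 to 37.9 FPKM and also overlapped. COLGALT1, which glycosylates hydroxylysine, had a log2 fold change of -0.36 (limma adjusted p 0.0005), KLHL12, an adaptor of collagen carriers, one of -0.28 (adjusted p 0.0048), FURIN, a propeptide convertase, one of -0.26 (adjusted p 0.0114) and PXDN, which crosslinks collagen IV, one of -0.32 (adjusted p 0.0009). The last 4 passed the adjusted p and not the fold threshold. So did PCOLCE (-0.36), ADAMTS14 (-0.30), P4HA1 (-0.28), PLOD3 (-0.27) and PLOD1 (-0.24), which were also lower. In the other direction, 7 genes passed the adjusted p alone, LOXL1 (0.44), FKBP14 (0.28), SEC24D (0.27), SEC23A (0.22), BMP1 (0.21), CRTAP (0.20) and P3H4 (0.17). Of the 5 export genes, 1 was lower and 2 were higher in this sense. Within 1 group the order differed in 3 steps, with SERPINH1 (40.6 FPKM) above PPIB (35.0 FPKM) in BrM3-shNC, and MIA3 (11.7 FPKM) above KLHL12 (10.6 FPKM) and LOXL1 (13.1 FPKM) above PXDN (11.8 FPKM) in BrM3-shAKR1B10. PCOLCE2, an enhancer of propeptide removal with a mean under 1 FPKM, was at 0.240, 0.344 and 0.239 FPKM in BrM3-shAKR1B10 and at 1.05, 1.17 and 1.08 FPKM in BrM3-shNC. It was called lower in the second fit (log2 fold change -1.69, standard error 0.186, limma adjusted p 0.0012), and was still called with a pseudocount of 1, at -0.72.

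Of 11 collagen receptor genes, 4 were tested. None was called lower by limma on log2 FPKM, nor by voom with the fold threshold, where 7.45% of all genes tested were called lower by limma on log2 FPKM. At an unadjusted p under 0.05, 1 of the 4 had a negative fold change, as did 27.3% of all genes tested. OSCAR, a collagen receptor known from osteoclasts and myeloid cells, was called higher, where 5.83% of all genes were. It was at 2.12, 2.45 and 2.62 FPKM in BrM3-shAKR1B10 and at 0.471, 0.823 and 0.578 FPKM in BrM3-shNC, with a log2 fold change of 1.81 (standard error 0.211, limma adjusted p 0.0008). With a pseudocount of 1 it was still called, at 1.07. Its mean was 2.40 FPKM in BrM3-shAKR1B10 (78 to 97 reads) and 0.624 FPKM in BrM3-shNC (18 to 29 reads). OSCAR thus passed the filter only through the group where it was high, so 1 call among 4 is not a result about the receptors. In the second fit, whose filter it passed in both groups, it was also called (limma adjusted p 0.0012), where 4.87% of genes were called higher. The receptor genes with the most transcript were ITGB1, the beta chain of the collagen-binding integrins, at 60.5 to 67.1 FPKM, and DDR1, a collagen-activated tyrosine kinase, at 44.1 to 48.1 FPKM. Neither was called (ITGB1, log2 fold change 0.09, limma adjusted p 0.0597; DDR1, 0.05, adjusted p 0.343). The leukocyte markers summed to 1.64 FPKM or less in every library beside the OSCAR result, and their part in it was not tested.

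**Figure D5:**
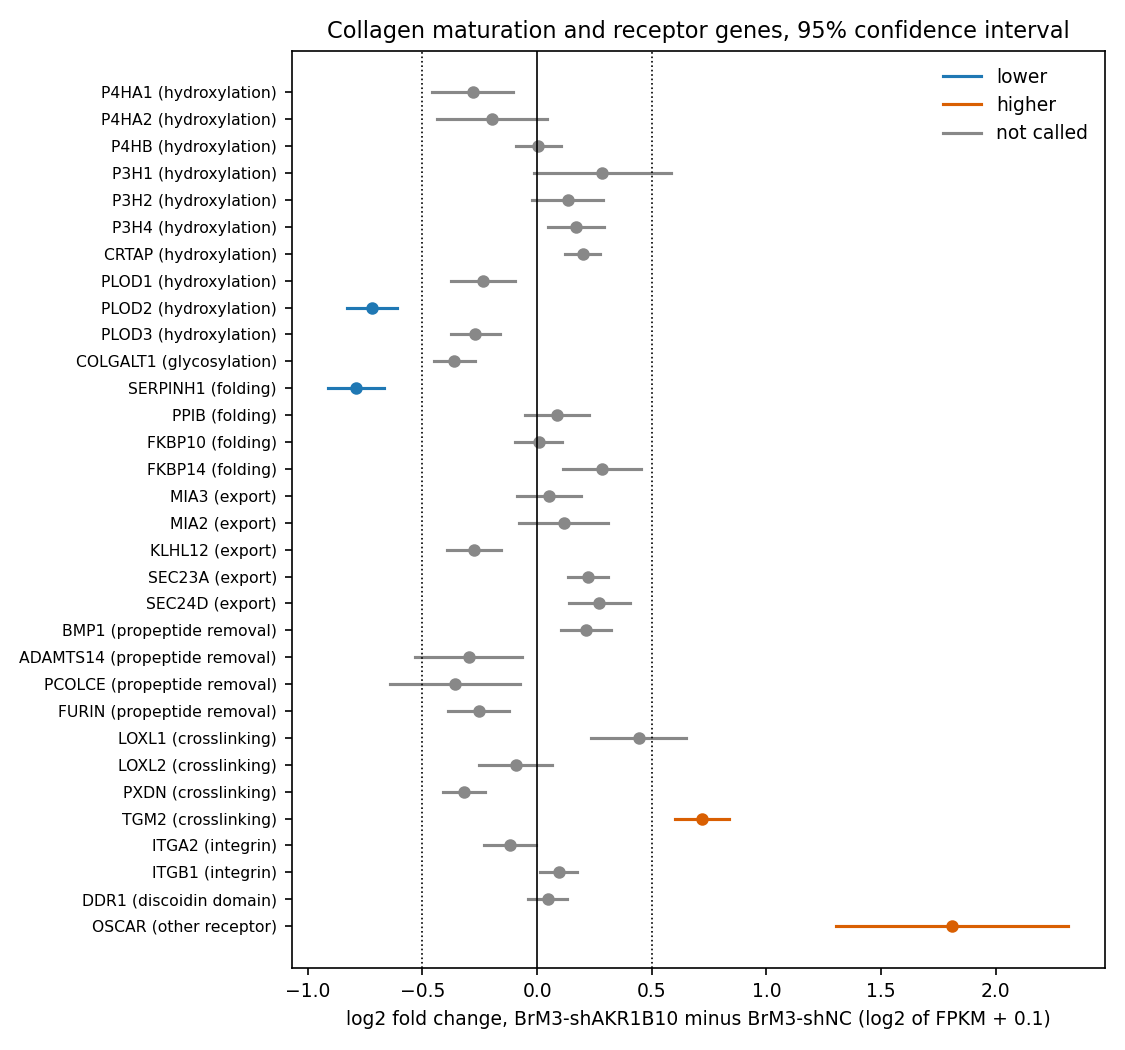
Log2 fold change, BrM3-shAKR1B10 minus BrM3-shNC, of the 28 maturation and 4 receptor genes that averaged 1 FPKM or more, on the log2(FPKM + 0.1) scale with 95% confidence intervals from limma. SERPINH1 at -0.79 and PLOD2 at -0.72 are called lower, and TGM2 at 0.72 and OSCAR at 1.81 are called higher.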

How the data were processed

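RNA of 3 BrM3-shAKR1B10 and 3 BrM3-shNC libraries was measured by RNA-seq of poly-T purified mRNA. The authors used Hisat2 v2.0.5 for alignment and featureCounts v1.5.0-p3 for counting, and deposited 1 table of FPKM values, with gene length, position and biotype; strand use is not given in the sources used here. All 58735 genes matched GENCODE 29 (Ensembl 94, GRCh38) in position and length. Dividing out length and library size gave whole read numbers for 100% of values (tolerance 0.01). No per-sample column was left unused, and no 2 libraries of a group were alike within sampling noise.

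The groups were compared with limma 3.58.1 in R 4.3.3 on log2(FPKM + 0.1), using eBayes with a trend, over genes averaging 1 FPKM or more (second fit 0.1), Benjamini-Hochberg adjustment, and the thresholds 0.05 and 0.5. The code was checked on simulated data. Ratios were compared with an exact permutation test. Named are the chains at a mean FPKM of at least 1 with their partners, the chains just below, and those of collagens VIII and XI with COL2A1. Called genes of the maturation and receptor lists and the highest gene of each of their roles are also named. COL13A1, COL15A1, COL17A1, the pairs of genes sharing exons, the endothelial markers and the chains added at 1 TPM were added after their values were seen. So were MIA3 and the other maturation genes that passed the adjusted p alone. Members and lists were chosen with earlier results of these data known. Alternatives were pseudocounts of 1 and 0.01, other filters, TPM, quantile normalization, eBayes without a trend, voom, a replicate block, other fold thresholds and each library left out. Python 3.11.15 with pandas 2.3.3, numpy 2.4.6 and scipy 1.17.1 was used otherwise. Sequences came from GENCODE 29 and RefSeq (GRCh38.p14).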

Additional observations from a re-analysis of the deposited data

How the results depend on the processing

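Of the counts, the number of chains called lower (4) became 0 with a pseudocount of 1 and 0 at a log2 fold change above 1, and lay between 2 and 4 with 1 library left out. The chains called higher stayed at 1 under all settings. Of the maturation genes, 11 were lower and 8 higher without a fold threshold (23.1% and 19.4% of all genes), 0 and 0 above 1, and with 1 library left out 1 to 2 were higher, the 2 without BrM3-shNC replicate 3. A mean of at least 5 FPKM left 5 expressed chains, and a mean of at least 1 TPM gave 19. With a pseudocount of 1, COL1A1 (-0.43), COL4A2 (-0.39), COL4A5 (-0.47), COL5A1 (-0.36), COL4A6 (-0.45) and COL15A1 (-0.30) fell short of the fold threshold, as did COL4A5 in TPM (-0.49). COL17A1 was also called with quantile normalization (adjusted p 0.0449) and, like COL8A1, without a variance trend (adjusted p 0.0193 and 0.0040). Fold changes of genes that were not called changed sign when a library was left out, in COL9A3 (-0.150 to 0.0627), P4HB (-0.0265 to 0.0220), COL16A1 (-0.0438 to 0.0847) and COL4A3 (-0.0115 to 0.331), and in COL16A1 with quantile normalization (-0.10). The causes were not tested, beyond the pseudocount, which by construction shrinks low values. With the replicate number as a replicate block, 4 chains were lower and 1 higher, and among the called chains, maturation and receptor genes COL15A1 alone lost its call (adjusted p 0.0687). The deviations of same-numbered libraries correlated at -0.0155, 0.0039 and 0.0038, so the numbers do not pair the libraries. Depth limits the low chains, which rest on 5 to 222 reads a library.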
